A study of Mus musculus with 6 samples.

Results

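Sca-1, the product of Ly6a, and 6 relatives encoded beside it (Ly6c1, Ly6c2, Ly6e, Ly6g, Ly6i and Ly6k) were examined in aged haematopoietic stem and progenitor cells (HSPCs) given uridine or vehicle. The 7 genes were taken by symbol from the 54532 rows of a gene count table. All lie on mouse chromosome 15 (build mm10). They were picked after the difference between uridine and vehicle was known for these libraries, so the values of the members for that contrast are given as a description and no p-value is attached to them.

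Ly6 proteins are small, cysteine-rich proteins held at the outer face of the cell membrane by a glycosylphosphatidylinositol (GPI) anchor. Several of them serve as surface markers of blood cells: Sca-1, together with the receptor Kit, defines the gate from which mouse stem and progenitor cells are sorted, Ly6C is high on inflammatory monocytes, and Ly6G marks neutrophils. Sca-1 on HSPCs is known to rise on exposure to interferons.

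Messenger RNA was sequenced in 6 libraries of bone marrow HSPCs from aged wild-type C57BL/6 mice, 3 of vehicle-treated cells and 3 of cells that received uridine, a pyrimidine nucleoside. The RNA was of cultured cells. The labels give no age in numbers, dose, duration or sorting markers, and they do not say whether the replicates were separate cultures or mice, so the errors measure only the spread between these libraries, which may be technical. Totals ran from 16109265 to 18638627 counts, at which 3 counts correspond to 0.161 to 0.186 CPM (library counts brought to equal depth), a limit that covers counting error only. Transcripts of Kit and Cd34, a sialomucin of progenitor cells, were present at 363 to 386 CPM and 609 to 637 CPM.

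Of the 7 genes, 3 had counts in all 6 libraries (Ly6a, Ly6c2 and Ly6e), Ly6i had 60 counts in all, Ly6c1 had 3, Ly6g had 1 and Ly6k had 0. The count filter kept 14706 genes, among them Ly6a, Ly6c2, Ly6e and Ly6i. All 4 were lower with uridine at an adjusted p under 0.05 in edgeR's quasi-likelihood test, as were 10.1% of all genes tested (17.3% were called in either direction and 7.18% were higher). In all 4 the CPM of the groups did not overlap, as for 16.1% of all genes in that direction and 30.8% in either. Ly6i passed the filter only through its vehicle libraries, which favours a difference in that direction. Because the members were chosen on this contrast, nothing is read from these counts.

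The coding sequences show how close the members are. Ly6c1 and Ly6c2 shared 384 of 393 aligned coding bases (97.7%), Ly6a and Ly6i 86.3%, and Ly6a and Ly6c2 83.5%. Pairs with Ly6e or Ly6k aligned over too few bases for a value. The first 150 coding bases are printed for the 4 closest members because reads had to be assigned between them. They are from GENCODE vM21 on GRCm38, minus strand, spliced across an intron, 5′ to 3′, and capitals mark bases that differ from Ly6c2. They span chr15:75110548-75111667 (Ly6c2), chr15:75047390-75048511 (Ly6c1), chr15:74996489-74997604 (Ly6a) and chr15:74981923-74983059 (Ly6i).
Ly6c2: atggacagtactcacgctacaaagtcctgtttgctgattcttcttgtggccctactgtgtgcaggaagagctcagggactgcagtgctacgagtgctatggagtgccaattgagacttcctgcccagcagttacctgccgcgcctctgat
Ly6c1: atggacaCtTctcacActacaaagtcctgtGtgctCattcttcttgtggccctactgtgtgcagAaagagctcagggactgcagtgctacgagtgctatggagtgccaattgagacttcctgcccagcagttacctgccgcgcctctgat
Ly6a: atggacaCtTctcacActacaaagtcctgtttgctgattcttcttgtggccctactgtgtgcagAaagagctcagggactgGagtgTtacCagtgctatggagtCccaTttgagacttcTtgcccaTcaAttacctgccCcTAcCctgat
Ly6i: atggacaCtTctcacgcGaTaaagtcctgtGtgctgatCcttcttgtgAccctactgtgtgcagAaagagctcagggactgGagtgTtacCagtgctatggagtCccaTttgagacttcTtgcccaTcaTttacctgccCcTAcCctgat
In this stretch Ly6c1 differed from Ly6c2 at 6 bases, Ly6a at 16 and Ly6i at 20. Over whole transcripts, 39 of the 2737 windows of 150 bases (the read length) in Ly6c2 also occurred in Ly6c1, which is 1.42%, and 0 of the 1257 windows of Ly6a and of the 1107 of Ly6i occurred in another annotated gene. The windows were compared as exact matches between annotated transcripts, not with the whole genome.

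Ly6a (ENSMUSG00000075602, chr15:74994877-74998031, minus strand) encodes Sca-1. Its level was 15.95, 14.83 and 14.3 CPM in the vehicle libraries and 2.743, 3.964 and 3.784 CPM in the uridine libraries. Each uridine library was far below each vehicle library, and the lowest of the 6 was uridine 1. The means were 15.03 ± 0.838 and 3.50 ± 0.659 CPM (SD, n = 3 each), a log2 difference of -2.10 ± 0.15 (SE), or 4.28-fold lower with uridine. The uridine mean was 23.3% of the vehicle mean. Without uridine 1 the log2 difference was -1.95.

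Ly6c2 (ENSMUSG00000022584, chr15:75108158-75111970, minus strand) encodes a form of Ly6C. It stood at 112.8, 106.2 and 117.8 CPM with vehicle and at 46.34, 42.31 and 43.23 CPM with uridine. The groups were far apart compared with the range within each. The means were 112 ± 5.84 and 44.0 ± 2.11 CPM (SD, n = 3 each), a log2 difference of -1.35 ± 0.05 (SE), or 2.56-fold lower. Ly6c1 (ENSMUSG00000079018, chr15:75044018-75048830, minus strand), the other Ly6C gene, had 1 count in vehicle 2, 2 counts in uridine 2 and none in the other 4 libraries. It held 3 of the 8250 counts of the pair, or 0.0364% (95% Wilson interval 0.0124% to 0.107%, counting error only). The Ly6C transcript counted here was thus nearly all assigned to Ly6c2, and summing the pair gave the same log2 difference of -1.35.

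The near-identical coding sequences of Ly6c1 and Ly6c2 sit behind less similar upstream sequences, shown because Ly6c2 held nearly all counts of the pair. In windows of 300 bases around the transcription start, from RefSeq on GRCm38.p6, the pair matched at 78.2% of 266 aligned bases. The 250 bases before each start are given 5′ to 3′ on the minus strand, chr15:75111972-75112221 for Ly6c2 and chr15:75048838-75049087 for Ly6c1. Capitals mark bases of Ly6c1 that differ from Ly6c2 or are inserted within the aligned stretch. Bases of Ly6c1 ahead of the aligned stretch were not compared and are in lower case. Bases missing from Ly6c1 are not marked.
Ly6c2: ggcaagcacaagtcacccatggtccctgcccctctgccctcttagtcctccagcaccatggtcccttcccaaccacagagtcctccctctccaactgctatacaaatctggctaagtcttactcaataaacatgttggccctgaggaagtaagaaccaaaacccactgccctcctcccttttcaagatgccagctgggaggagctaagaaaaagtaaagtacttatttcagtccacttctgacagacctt
Ly6c1: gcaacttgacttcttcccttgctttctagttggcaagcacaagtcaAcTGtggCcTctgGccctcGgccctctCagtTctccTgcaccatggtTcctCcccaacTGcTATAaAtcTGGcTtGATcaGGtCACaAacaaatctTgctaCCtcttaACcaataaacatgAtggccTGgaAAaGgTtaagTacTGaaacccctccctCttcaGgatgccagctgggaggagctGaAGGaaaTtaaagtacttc
Of the 7 members, 3 (Ly6c1, Ly6c2 and Ly6g) had an entry in the promoter table. The interferon-gamma-activated site was searched as TTCNNNGAA, a palindrome that reads alike on both strands, and the core of the interferon-stimulated response element as GAAA, any 2 bases and GAAA again, on both strands. Neither occurred in the 3 windows. Across 32851 promoters of the same length, 8.30% held the first and 3.44% the second. A letter match is a description of the sequence and no match says only that these letters are not in this window.

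Ly6e (ENSMUSG00000022587, chr15:74955051-74959905, plus strand) encodes a broadly expressed Ly6 protein, also called thymic shared antigen 1 or Sca-2. It had 681.8, 673.2 and 664.4 CPM with vehicle and 530.9, 541.8 and 543.1 CPM with uridine. The difference was small beside those of Ly6a and Ly6c2, yet the groups did not overlap. The means were 673 ± 8.70 and 539 ± 6.70 CPM (SD, n = 3 each), a log2 difference of -0.32 ± 0.02 (SE), and the uridine mean was 80.01% of the vehicle mean. Ly6e did not pass a test against a 1.5-fold change, which called 0.972% of all genes; nothing is read from this, since the members were chosen on this contrast.

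Ly6i (ENSMUSG00000022586, chr15:74979534-74983430, minus strand), the member nearest to Ly6a in coding sequence, was rare. It had 21, 18 and 15 counts with vehicle and 2, 4 and 0 counts with uridine. All 3 vehicle libraries were above all 3 uridine libraries, and 1 uridine library had no count. The summed counts were 54 and 6. Scaled to library size, the uridine level was 0.114 of the vehicle level (exact 95% interval 0.0400 to 0.264, counting error only). The fitted log2 difference was -3.07 ± 0.63 (SE), and it was -3.93 without uridine 2. Ly6g (ENSMUSG00000022582, chr15:75155240-75159126, plus strand) had 1 count, in vehicle 1. Ly6k (ENSMUSG00000044678, chr15:74796874-74799986, minus strand), known from the testis and sperm of mice, had 0 counts in each library. Levels of Ly6c1, Ly6g and Ly6k were under the 3-count limit in each library, and no difference between the groups was detectable for them at this depth.

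**Figure D1:**
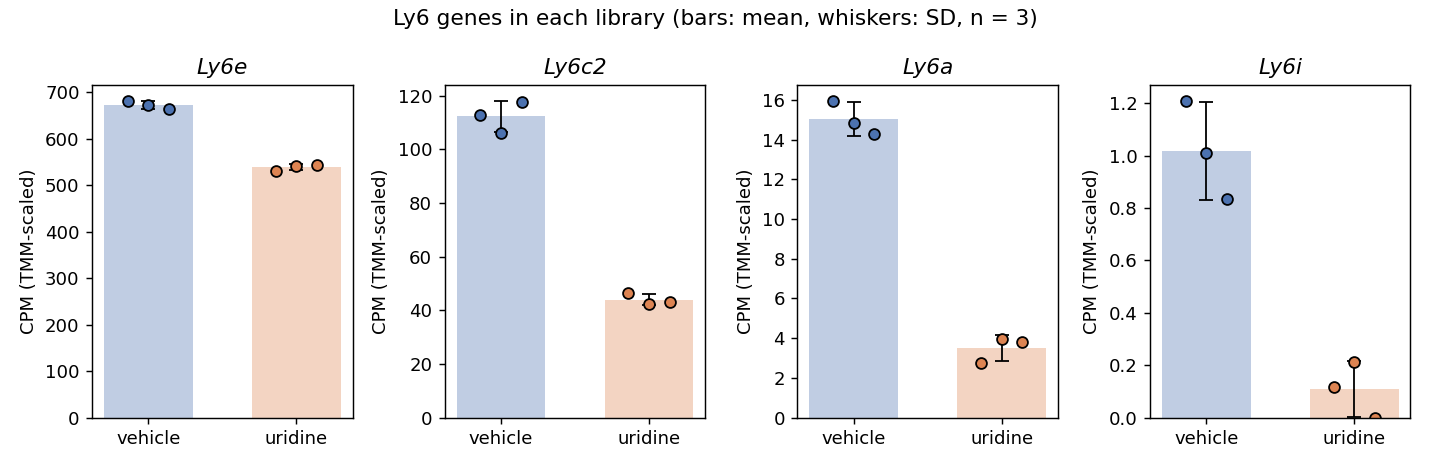
CPM of Ly6a, Ly6c2, Ly6e and Ly6i in each library (points) with the group mean and SD (bars and error bars), vehicle beside uridine. In all 4 panels the 3 uridine points lie below the 3 vehicle points, the uridine mean being 80.01% of the vehicle mean for Ly6e and 23.3% for Ly6a, and Ly6i reaches 0 in 1 uridine library.

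Levels of different genes were compared per length, as CPM per kilobase of the gene length in the table (RPKM). In every library the order was Ly6e, Ly6c2, Ly6a, Ly6i, and neighbours in that order did not overlap within either group. With vehicle the RPKM levels were 178 ± 2.30 for Ly6e, 41.0 ± 2.13 for Ly6c2, 12.5 ± 0.695 for Ly6a and 0.881 ± 0.162 for Ly6i (SD, n = 3). With uridine they were 142 ± 1.77, 16.0 ± 0.770, 2.90 ± 0.547 and 0.0954 ± 0.0928 RPKM in the same order. The order of Ly6c1, Ly6g and Ly6k below them was not resolved at 0 to 3 counts in all. Among other genes used to gate stem cells, vehicle levels per length were 85.1 ± 2.06 RPKM for Cd34, 40.9 ± 0.184 for Kit, 2.29 ± 0.269 for Procr, the receptor EPCR, and 1.80 ± 0.0754 for Slamf1, which encodes CD150. The level of Ly6a was thus between those of Kit and Procr with vehicle, and so it was with uridine, where it was closer to Procr at 2.05 ± 0.121 RPKM.

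**Figure D2:**
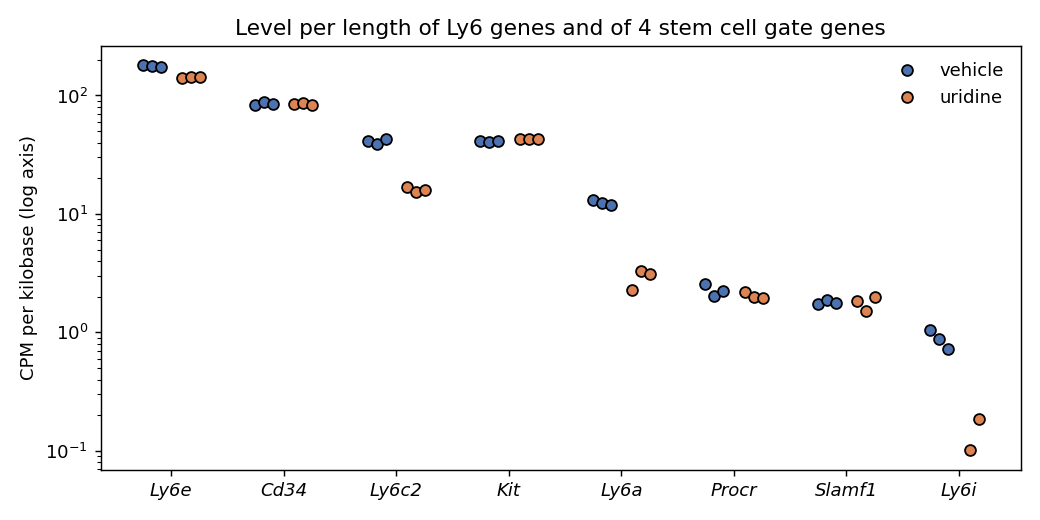
Level per length (RPKM, log axis) of Ly6e, Ly6c2, Ly6a and Ly6i and of Kit, Cd34, Procr and Slamf1 in the vehicle and uridine libraries. Ly6i has no point for uridine 3, where it had no count. Ly6e is the highest of the members and Ly6i the lowest of those tested, and Ly6a moves from 12.5 to 2.90 RPKM in mean.

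The unequal changes altered the make-up of the family. The summed level of the 7 members was 802 ± 8.97 CPM with vehicle and 586 ± 5.35 CPM with uridine (SD, n = 3 each). Ly6e made up 84.0 ± 0.662% of the family's counts with vehicle and 91.9 ± 0.311% with uridine. The share of Ly6c2 was 14.01 ± 0.720% with vehicle and 7.50 ± 0.427% with uridine, and that of Ly6a was 1.87 ± 0.0855% and 0.596 ± 0.108%. These are shares of counts, not corrected for length.

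By the Euclidean distance of log2 CPM, centred on each gene's mean over the 6 libraries, the protein-coding genes nearest to Ly6a among 12271 were C3, Clec5a, Pou2f2, Pirb and Nlrp3. C3, a complement component, was nearest at a distance of 0.420 log2 units and had means of 73.3 ± 0.746 and 17.4 ± 0.0812 CPM (SD, n = 3 each), a log2 difference of -2.07 ± 0.07. The others lay at 0.470 (Clec5a, a lectin receptor of myeloid cells), 0.482 (Pou2f2, the transcription factor Oct-2), 0.488 (Pirb, an inhibitory receptor) and 0.504 (Nlrp3, an inflammasome sensor). Their log2 differences were between -1.95 and -1.79, and all were chosen for likeness to a gene chosen on this contrast. Of the members, Ly6c2 was the 60th nearest at 1.04 and Ly6i the 101st at 1.30, whereas Ly6e lay at 2.19.

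The members span 362.3 kb, and the table holds 39 other rows within that span and 200 kb on either side. Of these, 23 had no count and 5 were tested. The 4 tested protein-coding neighbours were not called by edgeR's quasi-likelihood test with Benjamini-Hochberg adjustment: Jrk, a nuclear DNA-binding protein, at log2 0.08 ± 0.18 (adjusted p = 0.84), Them6, a thioesterase family member, at -0.14 ± 0.07 (adjusted p = 0.17), Lynx1, which modulates nicotinic receptors, at 0.31 ± 0.33 (adjusted p = 0.60), and Ly6d, a marker of early B-lineage progenitors, at 0.15 ± 0.23 (adjusted p = 0.73). At an unadjusted p under 0.05, 1 of the 4 passed, and DESeq2 and limma-voom called 0. Them6 was called without uridine 2 (-0.23, adjusted p = 0.027) and with the trend of fold change with gene length removed (-0.19, adjusted p = 0.049).

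The called neighbour was I830127L07Rik (ENSMUSG00000102051, chr15:75131377-75135128, minus strand), annotated as a transcribed unprocessed pseudogene and named here after its values were seen. It had 9.614, 10.17 and 11.74 CPM with vehicle and 3.91, 3.16 and 4.094 CPM with uridine. The groups did not overlap, and the level fell 2.83-fold, a log2 difference of -1.50 ± 0.16 (SE, adjusted p = 3.7e-12, edgeR's quasi-likelihood test). Its 730-base transcript matched Ly6i at 86.8% and Ly6a at 85.5% of aligned bases. None of its 768 windows of 150 bases occurred exactly in another annotated gene, so full-length exact matches were not shared with the members, but whether reads with mismatches were assigned between them was not tested. A further pseudogene, Gm5960, had 19, 4 and 13 counts with vehicle and 0, 8 and 2 with uridine, too few for the main test. It passed the filter and was called once vehicle 2 or uridine 2 was left out, each a library that went against the difference, so nothing is read from those calls.

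**Figure D3:**
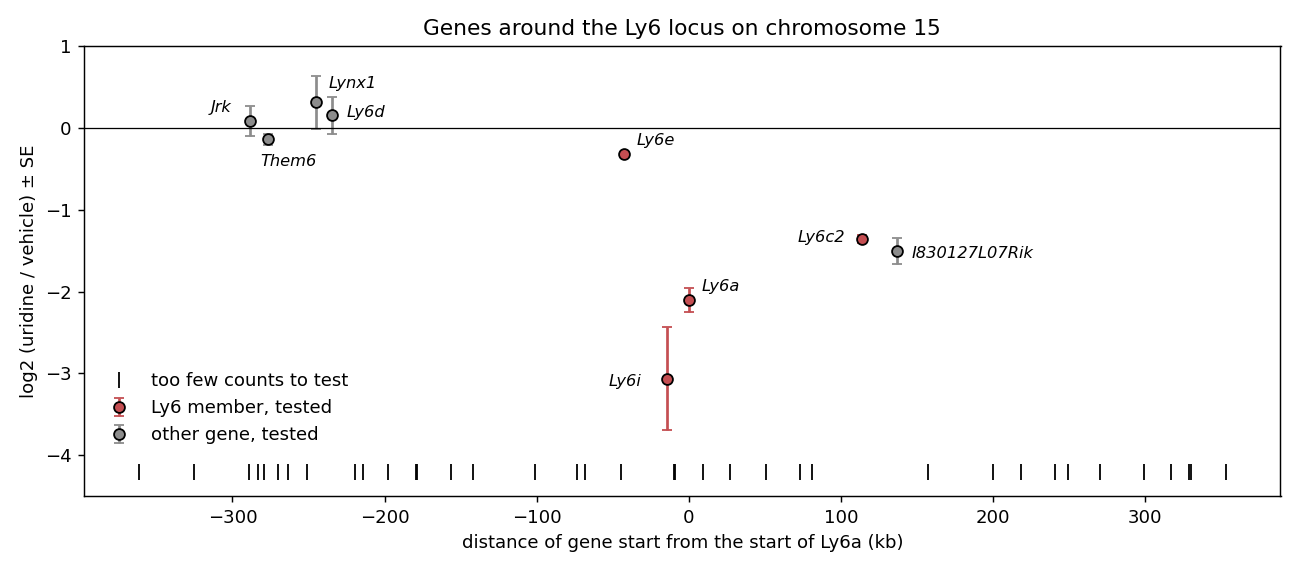
Log2 difference (uridine over vehicle, bars give SE) of each tested gene around the Ly6 locus against the distance of its start from that of Ly6a in kb; ticks at the bottom mark genes with too few counts to test. Ly6a, Ly6c2, Ly6i and I830127L07Rik lie between -3.07 and -1.35, Ly6e at -0.32, and the 4 protein-coding neighbours between -0.14 and 0.31.

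No tested gene on a list of the wider Ly6/uPAR family was called. The pseudogene I830127L07Rik, called above, is not on that list. Of 40 other genes of the Ly6/uPAR family listed, 31 were in the table and 9 were tested. None was called by edgeR's quasi-likelihood test, against 17.3% of all genes. At an unadjusted p under 0.05, 2 were higher, and DESeq2 and limma-voom called 0. Their median log2 difference was 0.23, against 0.01 over all genes tested. Lynx1, Ly6g5b, Ly6g6d, Lypd6b, Cd59b and Cd177 were rare, with group means of 0.58 to 1.86 CPM and SE of 0.33 to 0.46. With 9 genes, many of them rare, nothing is read from the absence of calls or from the median. Plaur, the urokinase receptor, was at -0.20 ± 0.12 (adjusted p = 0.26), and Cd59a, an inhibitor of complement, at 0.23 ± 0.11 (adjusted p = 0.14). Ly6g6d, at 1.13 ± 0.44 (adjusted p = 0.064), was called without uridine 3 (1.44, adjusted p = 0.021).

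On the list of GPI anchor synthesis, 29 genes that build, attach or remodel the anchor were tested. Of these, 1 rose and 1 fell (6.90% called, against 17.3% of all genes), with a median of 0.02. Dpm3, a subunit of dolichol-phosphate mannose synthase, rose by 0.37 ± 0.10 (adjusted p = 0.0035; not called at 0.055 with a replicate block and the length trend removed), and Pigt, a subunit of the GPI transamidase, was at -0.12 ± 0.04 (adjusted p = 0.016). Pigt was not called without vehicle 3 (adjusted p = 0.14) or without uridine 1 (adjusted p = 0.097). Other GPI-anchored surface proteins were more varied: of 20 tested, 6 fell and 1, Art4, rose (35% called), with a median of -0.15. Among those that fell, Cd14, Cd48 and Thy1 are also in marker lists below. Cd14, the co-receptor for lipopolysaccharide, fell from 7.49 ± 0.347 to 1.71 ± 0.527 CPM (log2 -2.11 ± 0.21, adjusted p = 2.4e-13), Cd52 by 0.90 ± 0.13 on the log2 scale (adjusted p = 1.4e-07) and Gpc1, a glypican, by 0.60 ± 0.09 (adjusted p = 1.5e-07). Bst1, an ectoenzyme, had 1.28 ± 0.0631 CPM with vehicle and 0.176 ± 0.0638 CPM with uridine (log2 -2.83 ± 0.54); it passed the count filter only through its vehicle libraries, so its call is not read as support.

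Receptors and transcription factors of interferon and tumour necrosis factor (TNF) signalling were lower in part. Any link of these genes to the level of Ly6a was not tested. Of 22 listed genes 20 were tested, 10 fell and 0 rose (50% called, median -0.13). Among all genes tested, 17.3% were called and 10.1% were lower. DESeq2 called 8 and limma-voom 10, all lower, while at an unadjusted p under 0.05 none was higher. Ifng, the ligand of the interferon-gamma receptor, had no count. Both receptor chains fell: Ifngr1 from 85.4 ± 4.95 to 66.2 ± 4.73 CPM (log2 -0.37 ± 0.05, adjusted p = 9.9e-09) and Ifngr2 from 23.7 ± 2.46 to 12.97 ± 1.03 CPM (-0.87 ± 0.10, adjusted p = 3.4e-11). Irf8, a transcription factor of monocyte and dendritic cell development, fell from 92.3 ± 1.74 to 60.3 ± 3.23 CPM (-0.61 ± 0.05, adjusted p = 6.5e-18).

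Falls were also found for the TNF receptors Tnfrsf1a (-0.27 ± 0.04, adjusted p = 1.3e-06) and Tnfrsf1b (-0.29 ± 0.05, adjusted p = 2.8e-06), the type I interferon receptor chain Ifnar1 (-0.21 ± 0.05, adjusted p = 0.00045) and the factor Irf7 (-0.54 ± 0.13, adjusted p = 0.0017). The remaining 3 calls were each lost when 1 library was left out. Tnf (-0.50, adjusted p = 0.0074) was not called without vehicle 3 (adjusted p = 0.062) or uridine 3 (0.089). Stat3 (-0.08, adjusted p = 0.035) was lost with library size alone (adjusted p = 0.067), DESeq2 (0.088), no count filter (0.059) and the length trend removed (0.33), and without vehicle 1 (adjusted p = 0.15), vehicle 3 (0.14), uridine 2 (0.091) or uridine 3 (0.15), and Ifnar2 (-0.15, adjusted p = 0.037) with library size alone (0.052), DESeq2 (0.079) and no count filter (0.052), and without any library other than uridine 1 (adjusted p of 0.057 to 0.16). The kinases Jak1, Jak2 and Tyk2 and the factors Irf1 and Irf9 were not called.

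Among 33 tested genes known to be induced by interferons, 10 fell and 2 rose, Tgtp2 and H2-D1. This was 36.4% called, against 17.3% of all genes, with a median of -0.10. Cxcl10, a chemokine, had 3.39 ± 0.244 CPM with vehicle and 0.445 ± 0.0757 CPM with uridine (log2 -2.91 ± 0.34); like Bst1 it passed the filter only through its vehicle libraries. Ifitm1, a membrane protein that restricts viral entry, fell by 0.28 ± 0.04 (adjusted p = 1.4e-09), the guanylate-binding protein gene Gbp3 by 0.70 ± 0.10 (adjusted p = 8.6e-08) and Parp14 by 0.35 ± 0.05 (adjusted p = 1.6e-07). B2m, Psmb8 and Ifitm3 were not called, at -0.02 ± 0.02, 0.02 ± 0.04 and 0.00 ± 0.03. Whether the interferon-induced genes and the members changed for a shared reason was not tested.

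Of 18 surface markers used to gate stem and progenitor cells (Ly6a not among them), 5 rose and 7 fell (66.7% called, against 17.3% of all genes), with a median of -0.02. Fcgr2b, an Fc receptor used to separate myeloid progenitors, fell by 1.11 ± 0.07 (adjusted p = 1.9e-21), Flt3, a marker of multipotent progenitors, by 0.32 ± 0.04 (adjusted p = 2.1e-09) and Cd93 by 0.25 ± 0.03 (adjusted p = 1.1e-11). Itga2b, the integrin CD41, rose by 0.16 ± 0.02 (adjusted p = 4.2e-12). Kit, the partner of Sca-1 in the gate, was at 0.07 ± 0.02 (adjusted p = 0.024, lost with no count filter at 0.08 and without vehicle 2 at 0.076, uridine 2 at 0.086 or uridine 3 at 0.064). Cd34 (-0.01 ± 0.02), Procr (-0.16 ± 0.19) and Slamf1 (-0.03 ± 0.12) were not called, at adjusted p of 0.91, 0.65 and 0.92.

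**Figure D4:**
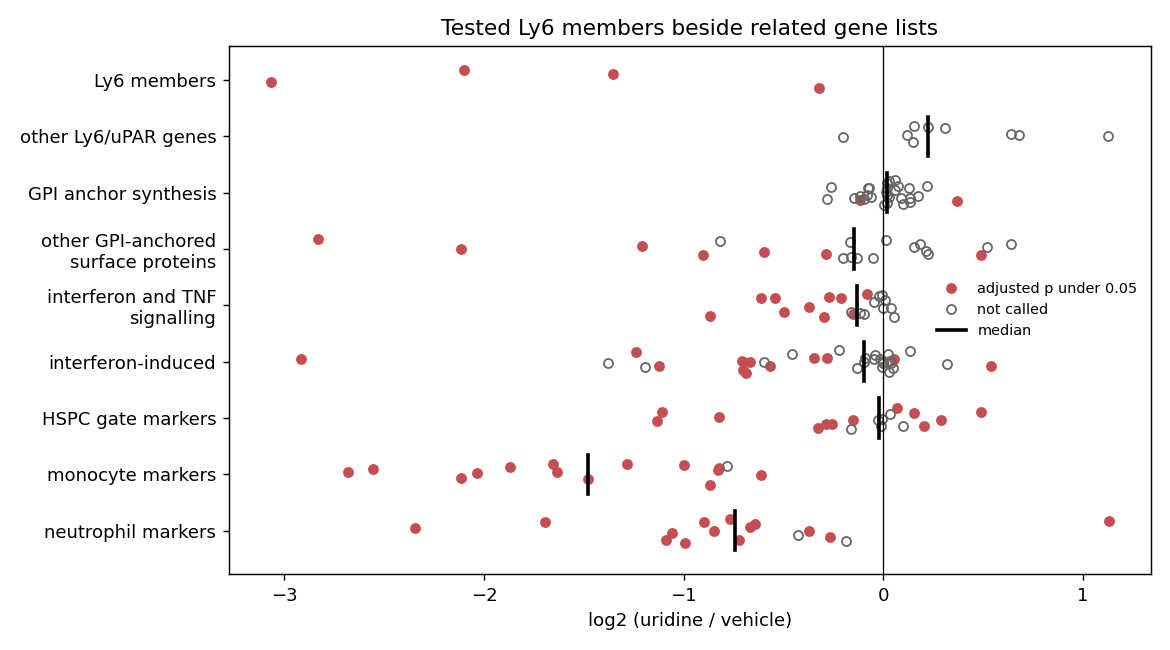
Log2 difference (uridine over vehicle) of each tested gene, one row for the Ly6 members and one for each related list; filled points had an adjusted p under 0.05 and vertical bars give list medians. The 4 tested Ly6 members lie from -3.07 to -0.32, no gene in the row of other Ly6/uPAR genes is called, and the monocyte markers have a median of -1.48.

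Most monocyte and neutrophil markers were lower with uridine. Of 15 tested monocyte markers 14 fell and 0 rose (at an unadjusted p under 0.05, 15 were lower and none higher; DESeq2 and limma-voom called 14, all lower), against 10.1% of all genes lower and 17.3% called in either direction, the shares behind the marker counts that follow too. Cybb, a subunit of the phagocyte oxidase, fell by 2.55 ± 0.07 (adjusted p = 4.2e-42), the lysozyme gene Lyz2 by 0.87 ± 0.03 (adjusted p = 8.2e-35), the chemokine receptor gene Ccr2 by 2.03 ± 0.08 (adjusted p = 1.7e-33) and Csf1r, a growth factor receptor of macrophages, by 1.65 ± 0.07 (adjusted p = 1.8e-33). The list's summed level was 741 to 756 CPM with vehicle and 329 to 330 CPM with uridine, and none of the 16 listed was at 0. Of 16 tested neutrophil and granule markers 13 fell and 1 rose, with sums of 2952 to 3017 CPM and 1618 to 1663 CPM. Mpo (1945 CPM in the vehicle mean), Prtn3 (344.5 CPM), Ctsg (324.2 CPM) and Elane (229.6 CPM) carried most of the vehicle sum. Camp and Cxcr2 were not called, at adjusted p of 0.77 and 0.36. The rise was Ltf, from 2.94 ± 0.490 to 6.45 ± 0.978 CPM (log2 1.13 ± 0.19, adjusted p = 4.2e-06). The granule protein genes Mpo, Elane, Prtn3 and Ctsg fell by 0.90 ± 0.02, 0.99 ± 0.03, 0.85 ± 0.03 and 0.72 ± 0.03 on the log2 scale (adjusted p from 1.3e-50 to 3.1e-35), while Ly6g, the defining surface marker of neutrophils, had 1 count in all. In bulk RNA, fewer cells of a type and less RNA per cell cannot be told apart, and the part of these cells in the values of Ly6a, Ly6c2, Ly6e and Ly6i was not tested.

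Sca-1 and Ly6C are also found on T cells and endothelium. Of 12 T and NK cell markers 3 were tested and 1 fell, with sums of 45.6 to 54.9 CPM with vehicle and 40.4 to 44.7 CPM with uridine. Nkg7 (37.6 CPM in the vehicle mean), Lck (5.79 CPM) and Il7r (5.31 CPM) carried most of that sum, and the T cell receptor components Cd3e, Cd3d, Cd3g, Trac and Trbc2 had 0 to 5 counts per library. Of 12 endothelial markers 8 were tested, 2 rose and 1 fell, with sums of 876 to 881 CPM and 855 to 874 CPM. The rises were Tie1 (0.24 ± 0.03, adjusted p = 3.1e-08) and Tek (0.49 ± 0.12, adjusted p = 0.0011). Tek is also on the list of stem and progenitor gate markers above. The endothelial fall was Vwf (-0.09 ± 0.02, adjusted p = 0.00043), which was not called with the length trend removed (0.65). Cldn5 and Sox17 had no count. Dendritic cell markers fell in 6 of 14 tested (sums of 535 to 546 and 456 to 459 CPM), and B and plasma cell markers in 1 of 10 (217 to 223 and 195 to 205 CPM). Of the remaining lists, 3 of 6 tested erythroid markers rose and 1 fell (sums of 684 to 713 and 754 to 766 CPM, with the globin genes Hba-a1 and Hba-a2 at 0), 4 of 10 mast cell and basophil markers rose and 2 fell (429 to 433 and 461 to 491 CPM), and 1 of 4 stromal markers rose and 1 fell (74.0 to 79.2 and 67.7 to 75.0 CPM, with Dcn and Lum at 0). The erythroid fall was Tfrc (-0.07, adjusted p = 0.042), which DESeq2 did not call (0.086), and the rise of Gata1 was lost without uridine 1 (0.053). The stromal rise was Col1a2 (0.49, adjusted p = 0.044), which neither DESeq2 (0.099) nor limma-voom (0.057) called. Tfrc was lost without any library other than vehicle 2 (0.051 to 0.28), and Col1a2 without any other than vehicle 1 (0.054 to 0.19). Their part in the members' values was not tested.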

How the data were processed

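The deposited table holds raw counts for each gene and library, beside gene positions and lengths. Per the submitters' processing notes, HISAT2 2.0.5 and build mm10 were used; which program counted reads, with which strand setting and what handling of multiply placed reads, is not given in the sources used here, so reads of close paralogues and of antisense genes may be shared. Counts were used as deposited. Low genes were removed with filterByExpr, libraries were scaled by TMM, and groups were compared with edgeR 4.0.16 (glmQLFit, robust, R 4.3.3), with treatment as the single term and Benjamini-Hochberg adjustment over 14706 genes; a gene was called at an adjusted p under 0.05. Every adjusted p in the text is from this test unless another is named. SE is the log2 difference divided by the square root of F. CPM values use TMM-scaled totals. Replicate pairs differed by more than counting noise, so none was treated as 1 library. Coding sequences were aligned with Biopython 1.88. Promoters are RefSeq's, and coding sequences are from GENCODE vM21, both on GRCm38, the assembly of mm10.

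The members and gene lists were chosen with earlier results of these data known. Some genes stand in several lists, such as Cd14, Cd48, Thy1, Cd59a, Cd59b, Plaur, Irf7, Irf8, Flt3, Fcgr3 and Tek. Counts of different lists are thus not separate results. Named genes were all members, tested protein-coding neighbours, the 5 nearest genes to Ly6a and the called signalling genes. Added to these were up to 4 called genes with the smallest p in each list, and Kit, Cd34, Procr and Slamf1. For cell types other than monocytes, neutrophils and endothelium the text gives counts only, apart from lost calls and genes named for their level. Any other gene was named after its values were seen. Alternatives were DESeq2 1.42.0 size factors and Wald test, limma-voom (limma 3.58.1), library size alone, no count filter, a mean of at least 50 counts, a test against a 1.5-fold change, a replicate block, removal of the gene length trend, both of these together, Ly6c1 and Ly6c2 summed, and each library left out.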

Additional observations from a re-analysis of the deposited data

How the results depend on the processing

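The log2 differences of Ly6a, Ly6c2 and Ly6i over the alternatives were -2.20 to -1.95, -1.39 to -1.32 and -3.93 to -2.56; DESeq2 gave no adjusted p for Ly6i, and a mean of at least 50 counts removed it. As the members were chosen on this contrast, these ranges are a description and no sign of stability. Ly6e was at -0.34 to -0.31, and at -0.32 it did not pass the test against a 1.5-fold change, which called 143 genes in all, 2 rising and 141 falling, and 4 of the 107 tested genes in the 5 lists of the wider family, GPI anchor synthesis, GPI-anchored proteins, interferon signalling and interferon-induced genes. DESeq2's Wald test called 696 rising genes. Leaving out 1 library gave 2060 to 2229 calls (799 to 867 rising and 1234 to 1367 falling), 1 to 3 calls around the locus and 23 to 31 calls in those 5 lists, against 31 in the main test; these are totals and can include other genes. Removing the gene length trend gave 2 calls around the locus. Same-numbered libraries did not deviate together (correlations of -0.02, 0.03 and -0.01), so the numbers were not read as pairs; with the replicate block 2400 genes were called and Ly6a stood at -2.10. Of 1123 alternative values for 71 genes other than Ly6a, Ly6c2 and Ly6e, 87 lost the call, 3 gained it and 0 reversed. These 71 were Ly6i, I830127L07Rik, the tested genes of the wider Ly6/uPAR family and the other tested genes that the naming rule covers. Ly6c1, Ly6g and Ly6k were limited by depth. The causes of these changes were not tested.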
